A study of Mus musculus with 8 samples.

Results

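The transcripts described here are those of 32 genes for integrins and the proteins that gather at their inner side in focal adhesions, of 22962 genes measured. They were taken by symbol from a table of expression values, and all 32 were found: 14 subunits of integrins that bind extracellular matrix, 6 subunits of leukocyte integrins, and 12 proteins of the adhesion plaque. The RNA came from cultured cells of the stromal vascular fraction of gonadal fat from wild-type mice, labelled as mature adipocytes. Of the 8 libraries, 4 came from cultures given DoxSa and 4 from cultures given the solvent DMSO, each at day 6, and no other allele or agent is named for either group. The labels do not spell out DoxSa, and the title of the series concerns 1-deoxysphingolipids in adipose inflammation. No dose, sex or age is given, and nothing says whether the libraries of a group stem from different cultures or animals, and the p-values therefore reflect the spread among the libraries at hand, which may be technical.

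Integrins are pairs of an alpha and a beta chain that span the plasma membrane. The head of the pair binds collagen, laminin, fibronectin and related matrix proteins, or a ligand on another cell, and the short tail of the beta chain binds talin and kindlin, which activate the receptor and tie it to actin through a plaque of adaptors and kinases. In fat, the matrix around adipocytes and their progenitors is read by the beta 1 and alpha v integrins, while beta 2 integrins belong to leukocytes such as the macrophages of the stromal vascular fraction.

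Values are FPKM, reads scaled to the length of the gene and to the assigned reads of the library, so levels of different genes are given per length. The libraries held 39213008 to 41365861 assigned reads, recovered from the steps in the values. Defining adipocyte markers were abundant: Adipoq, the gene of adiponectin, averaged 772 FPKM with DoxSa and 774 FPKM with DMSO. The summed FPKM of 10 adipocyte markers was 12001 to 12656 with DoxSa and 12021 to 12377 with DMSO, and 1 of the 10, Retn, was lower. Most of this sum was Fabp4, at a mean of 8852 FPKM with DoxSa and 8698 FPKM with DMSO. Fabp4 alone had a positive fold change, and the other 9 were negative, with a median of -0.07 on the log2 scale over the 10. Over all tested genes 5221 of 12060 were negative, with a median of 0.01. The cultures also held macrophage transcripts, with 12 markers summing to 8120 to 8662 FPKM with DoxSa and 7312 to 8377 FPKM with DMSO, overlapping ranges in which 2 of 12, Cd14 and Ptprc, were higher with DoxSa. Markers of smooth muscle and myofibroblasts summed to 484 to 546 FPKM with DoxSa and 706 to 795 FPKM with DMSO, without overlap, and 6 of those 7 were lower. Lists for stromal progenitors, neutrophils, T and NK cells, B cells, dendritic and endothelial cells overlapped between groups in their sums, and 1 stromal progenitor marker, Pdgfrb, was lower with DoxSa (adjusted p = 0.00383). The sum of 5 mesothelial markers, nearly all of it Krt19, which did not pass, was 11.6 to 16.2 FPKM with DoxSa and 16.8 to 17.3 FPKM with DMSO, and that of 2 platelet genes, nearly all of it Pf4, was 209 to 220 FPKM with DoxSa and 177 to 195 FPKM with DMSO. In bulk RNA, fewer cells of a type and less RNA per cell cannot be told apart.

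Of the 32 genes, 26 averaged at least 0.5 FPKM over the 8 libraries and were tested with limma on log2(FPKM + 1), with the Benjamini-Hochberg adjustment over all 12060 tested genes. At an adjusted p under 0.05, 4 of the 26 differed: Itgb3 was higher with DoxSa, and Itga1, Itga11 and Itga8 were lower. Over all tested genes 5.90% were called, 3.88% higher and 2.02% lower. After quantile normalization the calls over all genes divided into 384 higher and 316 lower, in place of 468 higher and 244 lower, and the same 4 members passed together with Parva, lower. All 4 were subunits of matrix-binding integrins. None of the leukocyte integrins and plaque proteins among the 32 members passed the main test. The median log2 fold change over the 26 members was -0.00044, with 13 positive and 13 negative values, against 0.01 over all tested genes. Voom on the recovered reads called 1 member higher and 5 lower, the same 4 with Parva and Tln2 lower, against 7.22% of all tested genes called. With no filter on low values, which called 1.16% of 22962 genes, Itga2 was higher and Itga1 lower among the 32.

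**Figure D1:**
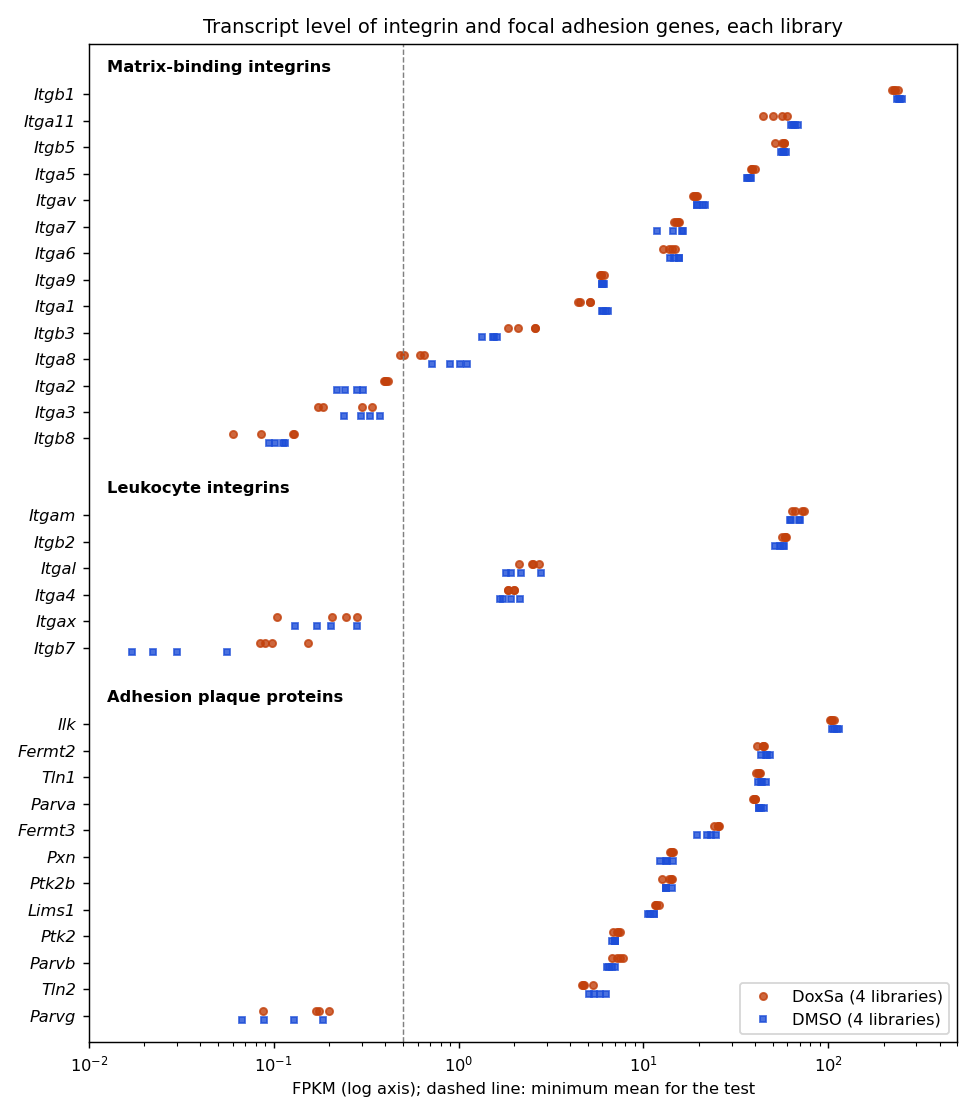
FPKM of each of the 32 genes in each library, on a log axis, with DoxSa libraries as red circles above DMSO libraries as blue squares, in the 3 groups of genes. Itgb1 is the most abundant member at 222 to 250 FPKM, and 6 genes lie left of the dashed line at 0.5 FPKM that marks the minimum mean for the test.

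Among the matrix-binding integrins, both tested collagen receptor alpha chains were lower with DoxSa. Itga1 encodes alpha 1, which with beta 1 binds collagens and above all the network collagen of basement membranes. Its level was 4.56, 4.44, 5.14 and 5.12 FPKM in the DoxSa libraries, against 5.97, 6.44, 6.25 and 6.08 FPKM in the DMSO libraries. All 4 DoxSa values lay below all 4 DMSO values, and the spread within either group was small beside the gap between them. The means were 4.81 ± 0.366 FPKM with DoxSa and 6.19 ± 0.209 FPKM with DMSO (SD, n = 4 each), and the log2 fold change was -0.31 ± 0.05 (SE; 95% interval -0.42 to -0.19; limma Benjamini-Hochberg adjusted p = 0.00687). Itga1 passed under all 15 alternative settings, with adjusted p between 0.00109 and 0.0350. In the RefSeq annotation the gene Pelo lies within Itga1, and whether reads were counted by strand is not given, so reads of an overlapping gene cannot be told apart from those of Itga1. The same holds for Itga4, Itga7, Fermt3 and Ilk, which also overlap protein-coding genes. It holds as well for members that overlap non-coding genes or pseudogenes, such as Itga2 and Parva.

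Itga11 encodes alpha 11, a receptor for fibrillar collagen that is typical of fibroblasts, and was the most abundant alpha chain of the matrix-binding group. It measured 44.3, 50.1, 59.5 and 56.3 FPKM with DoxSa, against 68.2, 62.7, 64.8 and 66.1 FPKM with DMSO. The groups did not overlap, although DoxSa library 1 lay far below DoxSa library 3, and the closest values of the groups were near each other. The mean was 52.6 ± 6.79 FPKM with DoxSa and 65.5 ± 2.29 FPKM with DMSO (SD, n = 4 each), a log2 fold change of -0.32 ± 0.08 (SE; 95% interval -0.49 to -0.15; limma Benjamini-Hochberg adjusted p = 0.0317). The call was lost without DoxSa replicate 2 (adjusted p = 0.0961), without any 1 of the 4 DMSO replicates (0.0527 to 0.0669), and with no filter on low values (0.150). Its direction did not change in any of these.

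The third collagen receptor alpha chain, Itga2, fell below the minimum for the test. Its product also pairs with beta 1 and binds fibrillar collagen, and in humans it is a collagen receptor of platelets. It stood at 0.401, 0.393, 0.406 and 0.415 FPKM with DoxSa, against 0.220, 0.283, 0.304 and 0.244 FPKM with DMSO. These values corresponded to 111 to 122 reads per DoxSa library and 64 to 88 reads per DMSO library. All DoxSa values were above all DMSO values, the opposite direction to Itga1 and Itga11. With voom on all genes of at least 10 reads on average, which was chosen after low members were seen and called 6.33% of 14312 genes, the log2 fold change of Itga2 was 0.61 ± 0.16 (SE; Benjamini-Hochberg adjusted p = 0.0258).

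Itga8 was the lowest of the tested members. Its product pairs with beta 1, recognises the RGD tripeptide and binds nephronectin. It measured 0.506, 0.484, 0.622 and 0.653 FPKM with DoxSa, against 0.894, 1.02, 1.11 and 0.722 FPKM with DMSO. The groups did not overlap, and the highest DoxSa value lay close under the lowest DMSO value, that of library 4. The recovered reads were 246 to 346 per DoxSa library and 379 to 579 per DMSO library. Means were 0.566 ± 0.0840 FPKM with DoxSa and 0.937 ± 0.168 FPKM with DMSO (SD, n = 4 each), a difference of -39.6% in mean FPKM, and the log2 fold change was -0.30 ± 0.07 (SE; 95% interval -0.46 to -0.15; limma Benjamini-Hochberg adjusted p = 0.0294). On the log2(FPKM + 1) scale the change of a gene this low is understated. The call was lost without DoxSa replicate 1, 2 or 3 or DMSO replicate 2 or 3, with adjusted p of 0.0528 to 0.0895. It was also lost with a replicate block (0.0512) and with no filter on low values (0.0989). A long non-coding gene, E030013I19Rik, overlaps Itga8 in RefSeq.

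The start regions of the 3 lowered alpha chain genes are shown to let their base composition be compared. Each line gives the 250 bases before the annotated RefSeq start (build GRCm38.p6), read 5′ to 3′ on the strand of the gene, and capitals mark CpG pairs.
Itga1 (chr13:115101965-115102214, minus strand): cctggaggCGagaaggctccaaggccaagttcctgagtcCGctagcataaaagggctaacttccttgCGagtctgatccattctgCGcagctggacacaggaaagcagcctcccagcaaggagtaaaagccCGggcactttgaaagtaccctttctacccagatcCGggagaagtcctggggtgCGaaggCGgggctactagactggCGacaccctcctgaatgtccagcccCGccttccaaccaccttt
Itga11 (chr9:62677605-62677854, plus strand): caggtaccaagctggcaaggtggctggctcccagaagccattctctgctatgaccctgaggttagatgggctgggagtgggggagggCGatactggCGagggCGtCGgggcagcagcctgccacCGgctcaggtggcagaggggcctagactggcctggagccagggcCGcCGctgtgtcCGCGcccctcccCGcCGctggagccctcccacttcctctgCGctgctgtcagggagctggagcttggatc
Itga8 (chr2:12301945-12302194, minus strand): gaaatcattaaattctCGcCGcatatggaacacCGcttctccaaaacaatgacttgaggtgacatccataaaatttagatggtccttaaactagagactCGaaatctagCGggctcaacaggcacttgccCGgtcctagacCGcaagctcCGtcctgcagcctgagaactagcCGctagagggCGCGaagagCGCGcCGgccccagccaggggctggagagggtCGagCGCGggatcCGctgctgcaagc
Itga1 held 10 CpG pairs, Itga11 held 12 and Itga8 held 18, against a median of 6 over 32851 RefSeq promoter windows of the same length. Their GC content was 57.6% in Itga1, 68.4% in Itga11 and 56.4% in Itga8, against a median of 52.4%. In none of the 3 windows did a search of both strands find GGAATG, the core bound by TEAD factors, TGANTCA, bound by AP-1, or the CArG box bound by serum response factor. These motifs were in 12.64%, 6.749% and 1.467% of all windows. Of the 32 members, 22 had a window in the RefSeq promoter table used, matched by symbol, with 27 windows in all, and Itgb3 was not among these 22. Matches were found in 1 window each: GGAATG in Itgb1, TGANTCA in Itgax and the CArG box in Fermt2. A match of letters is a description only, and no binding was measured.

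Itgb3 was the only member called higher. It encodes beta 3, the partner of alpha v in a receptor for vitronectin, osteopontin and other RGD proteins, found on osteoclasts, macrophages and activated vascular cells, and the partner of alpha IIb on platelets. Its level was 2.09, 2.60, 1.84 and 2.60 FPKM with DoxSa, against 1.61, 1.33, 1.55 and 1.53 FPKM with DMSO. Every DoxSa library was above every DMSO library, with a wider spread among the DoxSa libraries. The mean of 2.28 ± 0.378 FPKM with DoxSa was 51.3% above the mean of 1.51 ± 0.121 FPKM with DMSO (SD, n = 4 each), and the log2 fold change was 0.38 ± 0.08 (SE; 95% interval 0.21 to 0.56; limma Benjamini-Hochberg adjusted p = 0.0178). The recovered reads were 450 to 640 with DoxSa and 312 to 393 with DMSO. Without DoxSa replicate 2 the adjusted p was 0.0565, and with no filter on low values it was 0.0985. Pf4, a platelet gene that macrophages can also express, was higher with DoxSa as well. Itga2b, the gene of alpha IIb, averaged 0.614 FPKM with DoxSa and 0.699 FPKM with DMSO, and its groups overlapped. Its log2 fold change of -0.07 ± 0.09 did not pass (limma Benjamini-Hochberg adjusted p = 0.710). The part of any cell type in the Itgb3 difference was not tested.

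**Figure D2:**
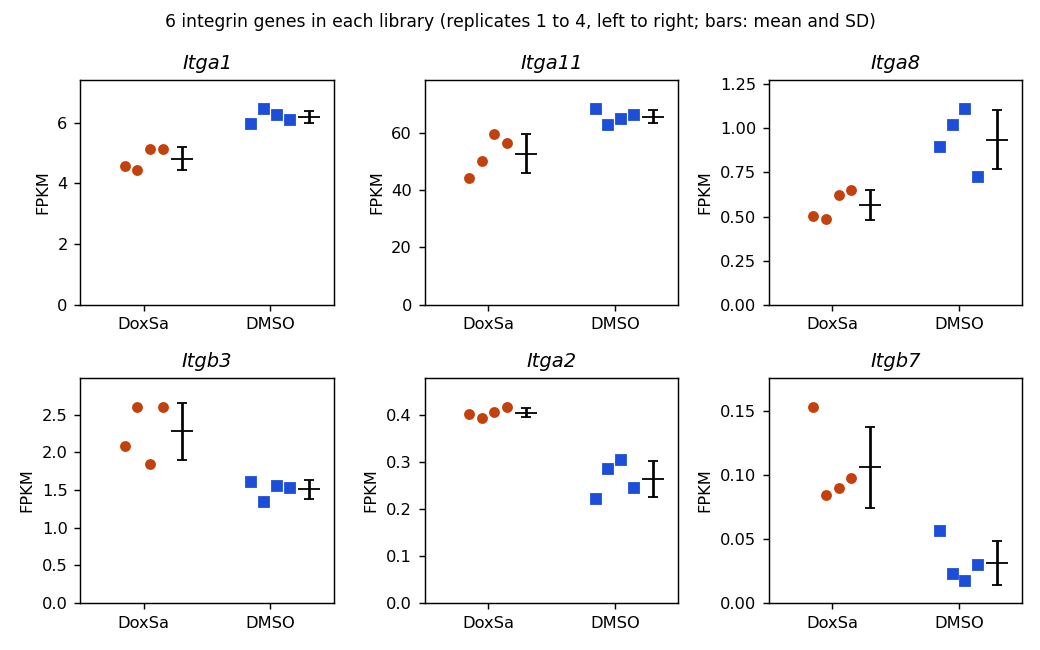
FPKM of 6 integrin genes in each library, DoxSa as red circles on the left and DMSO as blue squares on the right of each panel, with replicates 1 to 4 in order and the mean and SD beside them (linear axes from 0). Itga1, Itga11 and Itga8 lie lower in every DoxSa library, and Itgb3, Itga2 and Itgb7 lie higher in every DoxSa library. Itga2 and Itgb7 are under the minimum for the main test.

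Neither the partner of beta 3 nor the other tested beta chains of alpha v passed. Itgav, the alpha v chain that pairs with beta 1, beta 3, beta 5, beta 6 or beta 8, measured 18.6, 18.7, 19.4 and 19.2 FPKM with DoxSa, against 19.5, 19.4, 21.1 and 21.5 FPKM with DMSO. The DoxSa values were all lower, with only a narrow gap, and the log2 fold change of -0.10 ± 0.04 (SE) did not pass (limma Benjamini-Hochberg adjusted p = 0.220). Itgb5, whose product joins alpha v in a vitronectin receptor, measured 51.6 to 57.7 FPKM with DoxSa and 55.7 to 59.3 FPKM with DMSO, which overlapped (log2 fold change -0.04 ± 0.04, adjusted p = 0.654). The ratio of Itgb5 to Itgb3 FPKM was 21.7 to 31.3 with DoxSa and 36.8 to 41.7 with DMSO, so beta 5 transcripts far exceeded beta 3 transcripts in every library. The share of Itgb3 among the FPKM of the 6 beta genes was 0.534% to 0.749% with DoxSa and 0.379% to 0.455% with DMSO. Itgb8, whose product also pairs with alpha v and activates latent TGF-beta, was under the minimum for the test. It had only 21 to 46 reads per DoxSa library and 34 to 41 reads per DMSO library. Itgb6, the gene of beta 6, was under the minimum as well.

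Itgb1, the common beta chain of the collagen, laminin and fibronectin receptors, was the most abundant member. It measured 222, 237, 227 and 229 FPKM with DoxSa, against 236, 241, 245 and 250 FPKM with DMSO. Only DoxSa library 2 reached into the DMSO range. The mean of 229 ± 6.23 FPKM with DoxSa and 243 ± 5.77 FPKM with DMSO (SD, n = 4 each) gave a log2 fold change of -0.09 ± 0.03 that did not pass (limma Benjamini-Hochberg adjusted p = 0.170). Itga5, the alpha chain of the classical fibronectin receptor, measured 40.2, 38.8, 38.6 and 38.4 FPKM with DoxSa, against 37.5, 37.0, 36.3 and 38.2 FPKM with DMSO. Its DoxSa values were all higher, by a margin too small to pass (log2 fold change 0.06 ± 0.03, adjusted p = 0.290).

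The laminin receptor chains did not pass either. Itga6, a receptor for basement membrane laminins, measured 12.8 to 14.7 FPKM with DoxSa and 13.9 to 15.6 FPKM with DMSO (log2 fold change -0.10 ± 0.05, adjusted p = 0.323). Itga7, the laminin receptor of muscle, measured 14.7 to 15.6 FPKM with DoxSa, against 14.5, 16.4, 11.8 and 16.1 FPKM with DMSO. The DoxSa libraries lay close together for Itga7, and DMSO library 3 was below all others. Its log2 fold change was 0.05 ± 0.08 (adjusted p = 0.793) and changed sign without that library. Itga3, whose product is a laminin receptor of epithelia, was below the minimum at 0.249 ± 0.0833 FPKM with DoxSa and 0.311 ± 0.0577 FPKM with DMSO (SD, n = 4 each). Itga9, which encodes a receptor for tenascin and osteopontin, averaged 5.93 FPKM with DoxSa and 6.02 FPKM with DMSO and overlapped between groups.

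The makeup of the matrix receptors by transcript was described per library, without a test. The summed FPKM of the 14 matrix-binding genes was 420 to 446 with DoxSa and 463 to 479 with DMSO, which did not overlap. Itgb1, which overlapped between groups and did not pass, made up the largest part of this sum. The sum therefore says little of the less abundant genes. Among the alpha chains that can pair with beta 1, the collagen receptor chains Itga1, Itga2 and Itga11 made up 33.6% to 40.5% with DoxSa and 41.6% to 43.8% with DMSO. Most of this was Itga11, at 30.2% to 37.0% with DoxSa and 37.6% to 40.2% with DMSO. The RGD receptor chains Itga5, Itga8 and Itgav made up 36.5% to 40.4% with DoxSa and 34.1% to 35.7% with DMSO, while the share of the laminin receptor chains overlapped. Shares of 1 sum depend on each other, and a lower share of Itga11 raises the others. Of the 11 tested matrix-binding genes 1 was higher and 3 lower, against 3.88% higher and 2.02% lower over all tested genes. The fold changes were negative in 8 of the 11, with a median of -0.09 on the log2 scale. Over all tested genes 5221 of 12060 were negative, with a median of 0.01. Smooth muscle and myofibroblast markers were lower in the same DoxSa libraries, as given above, and their part in these integrin values was not tested.

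None of the 4 tested leukocyte integrins among the members passed in either direction, and Itgam and Itgb2 were the abundant ones. Itgam and Itgb2 encode alpha M and beta 2, which pair as the complement receptor and fibrinogen receptor of macrophages and neutrophils. Itgam measured 63.8, 66.4, 72.5 and 74.0 FPKM with DoxSa, against 69.6, 62.6, 70.2 and 61.9 FPKM with DMSO. Itgb2 measured 56.4, 58.5, 58.6 and 58.8 FPKM with DoxSa, against 57.2, 54.6, 57.6 and 51.4 FPKM with DMSO. Both genes overlapped between groups. The log2 fold change of Itgam was 0.07 ± 0.06 (SE; 95% interval -0.06 to 0.19; limma Benjamini-Hochberg adjusted p = 0.596) and that of Itgb2 was 0.07 ± 0.04 (95% interval -0.01 to 0.16; adjusted p = 0.339). The ratio of Itgam to Itgb2 averaged 1.19 with DoxSa and 1.20 with DMSO. Itgb2 held 16.5% to 17% of the FPKM of the 6 beta genes with DoxSa and 14.3% to 16.1% with DMSO, a share that also moves with the lower Itgb1 values.

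Itgal, the alpha chain of the lymphocyte receptor for ICAM proteins, measured 2.12 to 2.73 FPKM with DoxSa and 1.81 to 2.80 FPKM with DMSO (log2 fold change 0.14 ± 0.09, adjusted p = 0.460). Itga4, the alpha chain that binds VCAM1 and fibronectin with beta 1 or beta 7, averaged 1.92 FPKM with DoxSa and 1.87 FPKM with DMSO (log2 fold change 0.03 ± 0.06, adjusted p = 0.848). Itgax, used as a marker of dendritic cells and of some fat macrophages, was below the minimum at 0.210 ± 0.0766 FPKM with DoxSa and 0.197 ± 0.0653 FPKM with DMSO (SD, n = 4 each). Of the 6 leukocyte genes 4 were tested, 0 passed with limma, 0 had an unadjusted p under 0.05 and 0 passed with voom. Over all tested genes limma called 5.90% and voom 7.22%, and 1520 higher and 873 lower of 12060 had an unadjusted p under 0.05. At these shares 4 genes would give few calls or none. The 4 fold changes of the leukocyte genes were positive, with a median of 0.07 on the log2 scale. Over all tested genes 6839 of 12060 were positive, with a median of 0.01. All 12 macrophage markers also had positive fold changes (11 after median-of-ratios scaling and 10 after quantile normalization), and their part in these values was not tested.

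Itgb7 encodes beta 7, which joins alpha 4 or alpha E on lymphocytes, mast cells and some myeloid cells. It was barely detected, at 0.152, 0.0838, 0.0899 and 0.0975 FPKM with DoxSa, against 0.0557, 0.0223, 0.0172 and 0.0299 FPKM with DMSO. These were 36, 19, 21 and 23 reads in the DoxSa libraries, against 13, 5, 4 and 7 reads in the DMSO libraries. All DoxSa libraries were above all DMSO libraries, and library 1 was the highest of each group. The ratio of the mean FPKM was 3.38, and voom on genes with at least 10 reads on average gave a log2 fold change of 1.76 ± 0.40 (SE; Benjamini-Hochberg adjusted p = 0.0137). That fit was chosen after low members were seen, and it called 6.33% of 14312 genes. Itgb7 met its minimum only through the DoxSa libraries, where it is high, so this p-value cannot be taken as support for the difference. On log2(FPKM + 1) with no filter the adjusted p was 0.0797. The 7 matched of 10 listed T and NK cell markers summed to 0.281 to 0.588 FPKM with DoxSa and 0.233 to 0.454 FPKM with DMSO. These sums were low, but Itgb7 itself lay below them in both groups, and the part of any cell type was not tested.

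The 12 plaque proteins were tested in 11 cases, and limma called 0, against 5.90% of all tested genes. At this share 11 genes would give few calls or none. Of the 11, Fermt3 had an unadjusted p under 0.05 on the higher side and Tln2 and Parva on the lower side. Over all 12060 tested genes, 1520 were higher and 873 lower by that measure. Voom called Tln2 and Parva lower, against 7.22% of all tested genes called. Parva encodes alpha-parvin, which binds integrin-linked kinase and actin. It measured 39.3, 39.5, 40.2 and 39.9 FPKM with DoxSa, against 42.0, 44.8, 43.1 and 42.1 FPKM with DMSO. The DoxSa libraries were nearly equal and all below the DMSO libraries. The mean was 39.7 ± 0.370 FPKM with DoxSa and 43.0 ± 1.30 FPKM with DMSO (SD, n = 4 each), with a log2 fold change of -0.11 ± 0.03 (SE; 95% interval -0.18 to -0.04; limma Benjamini-Hochberg adjusted p = 0.0680). It passed after median-of-ratios scaling (0.0399), after quantile normalization (0.0450) and with voom (0.0296).

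Tln2 encodes the less widely expressed of the talins, the actin-binding proteins that activate integrins. It measured 4.68, 4.73, 5.32 and 4.75 FPKM with DoxSa, against 5.43, 6.28, 5.07 and 5.85 FPKM with DMSO. DoxSa library 3 overlapped with the lowest DMSO library, and the other 3 DoxSa libraries were below all DMSO libraries. The log2 fold change was -0.18 ± 0.06 (SE; 95% interval -0.32 to -0.04; limma Benjamini-Hochberg adjusted p = 0.128), and voom gave an adjusted p of 0.0417. The main talin, Tln1, was far more abundant, at 41.8 ± 1.05 FPKM with DoxSa and 43.7 ± 1.84 FPKM with DMSO (SD, n = 4 each), and did not pass (adjusted p = 0.422).

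Kindlins bind the beta tail beside talin. Fermt3, the kindlin of blood cells, measured 25.6, 25.4, 25.3 and 24.0 FPKM with DoxSa, against 24.7, 22.2, 23.2 and 19.5 FPKM with DMSO. The ranges overlapped at DoxSa library 4 and DMSO library 1, and the log2 fold change of 0.16 ± 0.06 did not pass (95% interval 0.03 to 0.29; limma Benjamini-Hochberg adjusted p = 0.161). Fermt2, the kindlin of stromal cells, averaged 43.8 ± 1.65 FPKM with DoxSa and 46.1 ± 2.07 FPKM with DMSO (SD, n = 4 each), a log2 fold change of -0.07 ± 0.04 (adjusted p = 0.377). The point estimates of the blood cell and stromal kindlins thus had opposite signs, and the difference between them was not tested.

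The remaining plaque members gave no call. Ilk, the gene of integrin-linked kinase, was the most abundant plaque gene at 104 ± 2.13 FPKM with DoxSa and 109 ± 4.01 FPKM with DMSO (SD, n = 4 each; log2 fold change -0.07 ± 0.03, adjusted p = 0.325). Lims1, the gene of PINCH1 that joins Ilk and parvin in 1 complex, measured 11.5 to 12.1 FPKM with DoxSa and 10.6 to 11.5 FPKM with DMSO, just without overlap (0.08 ± 0.04, adjusted p = 0.304). Parvb, a second parvin gene, averaged 7.28 FPKM with DoxSa and 6.68 FPKM with DMSO (0.11 ± 0.05, adjusted p = 0.254). The third parvin, Parvg, typical of blood cells, was below the minimum at 0.157 FPKM with DoxSa and 0.117 FPKM with DMSO. Ptk2, the gene of focal adhesion kinase, averaged 7.21 FPKM with DoxSa and 6.96 FPKM with DMSO (0.04 ± 0.04, adjusted p = 0.624). Its relative Ptk2b averaged 13.7 FPKM with DoxSa and 13.5 FPKM with DMSO (0.02 ± 0.05, adjusted p = 0.897), and Pxn, the scaffold paxillin, averaged 14.2 FPKM with DoxSa and 13.4 FPKM with DMSO (0.08 ± 0.05, adjusted p = 0.350). The summed FPKM of the 12 plaque genes was 311 to 319 with DoxSa and 313 to 331 with DMSO, which overlapped.

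**Figure D3:**
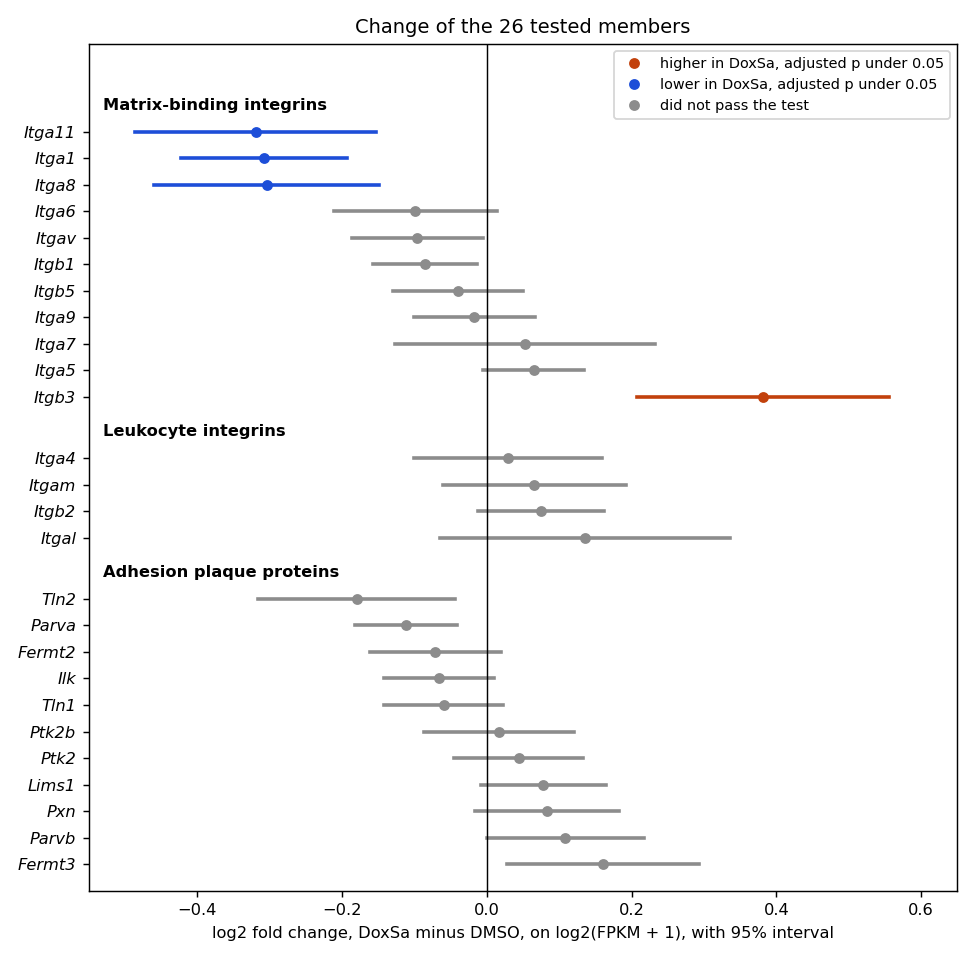
Log2 fold change (DoxSa minus DMSO, on log2(FPKM + 1)) of the 26 tested members with 95% intervals from limma, grouped as matrix-binding integrins, leukocyte integrins and plaque proteins. Itga11, Itga1 and Itga8 lie lowest at -0.32 to -0.30, Itgb3 lies highest at 0.38, and the leukocyte integrins lie at 0.03 to 0.14 with intervals that reach 0. Changes of low genes such as Itga8 are understated on this scale, so positions of low and abundant genes are not directly comparable.

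Counting libraries alone, 8 of the 26 tested members did not overlap between groups, against 12.5% of all tested genes. Of these, 3 were above in DoxSa (Itgb3, Itga5 and Lims1, against 7.80% of tested genes) and 5 below (Itga1, Itga11, Itga8, Itgav and Parva, against 4.71%). Among all 32 members 10 did not overlap, with Itga2 and Itgb7 added above, against 8.12% of all genes in the table. Of the 8, 6 were matrix-binding integrins, 2 were plaque proteins and 0 were leukocyte integrins.

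Genes that act with these members were counted from lists of 101 further genes. Among 29 other plaque and actin-linking proteins 28 were tested, 11 were lower and 0 higher, against 2.02% lower and 3.88% higher over all tested genes, with a median log2 fold change of -0.15. Unadjusted, 1 was higher and 19 lower at p under 0.05, against 1520 higher and 873 lower of all 12060 genes, and voom called 0 higher and 13 lower. Vcl, the gene of vinculin, which talin recruits to actin, averaged 62.3 ± 2.52 FPKM with DoxSa and 77.1 ± 1.60 FPKM with DMSO (SD, n = 4 each; log2 fold change -0.30 ± 0.04, limma Benjamini-Hochberg adjusted p = 7.77e-04). Actn1, the gene of the actin crosslinker alpha-actinin, averaged 45.9 ± 0.821 FPKM with DoxSa and 55.2 ± 1.57 FPKM with DMSO (-0.26 ± 0.03, adjusted p = 0.00103). Tns1, for the adhesion protein tensin, and Csrp1, for a LIM protein on actin bundles, were lower by log2 fold changes of -0.26 ± 0.04 and -0.19 ± 0.03 (adjusted p = 0.00375 and 0.00479). These 4 passed under all 15 alternative settings, and without DoxSa replicate 2 the lower count was 7 of the list. The lower actin-linking genes stood beside the lower smooth muscle and myofibroblast markers, whose part was not tested.

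Among 30 signalling and recycling adaptors 29 were tested, 4 were higher and 1 lower, against 3.88% higher and 2.02% lower over all tested genes, with a median log2 fold change of 0.01. Nedd9, a docking protein of focal adhesion kinase, was lower at 6.99 ± 0.493 FPKM with DoxSa and 9.13 ± 0.678 FPKM with DMSO (SD, n = 4 each; log2 fold change -0.34 ± 0.06, limma Benjamini-Hochberg adjusted p = 0.00786). The higher genes were Lyn, a Src family kinase of blood cells, Cd47, an integrin-associated membrane protein, Tgm2, a transglutaminase that binds fibronectin and integrins, and Rap1b, a small GTPase that activates integrins. Their log2 fold changes were 0.17, 0.16, 0.15 and 0.15, and their adjusted p 0.0254, 0.0377, 0.0405 and 0.0488. The higher count was 0 without DoxSa replicate 1 or 2 or DMSO replicate 2 or 4. It was 1 without DoxSa or DMSO replicate 3 and 2 without DoxSa replicate 4. It was 1 after median-of-ratios scaling, quantile normalization or a replicate block, and 0 with no filter on low values.

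Among the matrix ligands of these receptors more genes were lower than higher. Of 26 listed ligands 25 were tested, 7 were lower and 1 was higher, against 2.02% lower and 3.88% higher over all tested genes, with a median log2 fold change of -0.09. Spp1, the gene of osteopontin, an RGD ligand of alpha v beta 3 and alpha 8 beta 1, measured 519, 471, 383 and 407 FPKM with DoxSa, against 231, 217, 227 and 222 FPKM with DMSO. The groups lay far apart, with a mean of 445 ± 61.5 FPKM with DoxSa and 224 ± 6.09 FPKM with DMSO (SD, n = 4 each), and the log2 fold change was 0.98 ± 0.08 (limma Benjamini-Hochberg adjusted p = 9.53e-05). Thbs1, the gene of thrombospondin 1, averaged 671 ± 32.8 FPKM with DoxSa and 936 ± 33.0 FPKM with DMSO (-0.48 ± 0.04, adjusted p = 1.72e-04). Ccn2, a matricellular protein that binds integrins, averaged 108 ± 8.74 FPKM with DoxSa and 157 ± 5.68 FPKM with DMSO (-0.53 ± 0.05, adjusted p = 3.12e-04). The fibrillin gene Fbn1 and the laminin gene Lama2 were lower by log2 fold changes of -0.23 ± 0.04 and -0.25 ± 0.05 (adjusted p = 0.00543 and 0.0123). Of the 7 smooth muscle and myofibroblast markers 6 were lower in the same libraries, and their part in the ligand values was not tested.

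Ligands on cell surfaces gave 1 call in 7 tested of 10 listed, against 5.90% of all tested genes. Icam1, the gene of a ligand of beta 2 integrins that inflammatory signals induce, averaged 16.2 ± 0.742 FPKM with DoxSa and 13.2 ± 1.04 FPKM with DMSO (SD, n = 4 each; log2 fold change 0.28 ± 0.05, limma Benjamini-Hochberg adjusted p = 0.0143). With no filter on low values its adjusted p was 0.0712. Its receptor chains Itgal, Itgam and Itgb2 did not pass, as given above. Of 6 further integrin subunits 3 were tested, and Itgad, the alpha chain of a beta 2 integrin of tissue macrophages, was higher at 2.77 ± 0.223 FPKM with DoxSa and 2.06 ± 0.348 FPKM with DMSO (0.31 ± 0.08, adjusted p = 0.0499). That call was lost in 11 of 15 alternatives.

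**Figure D4:**
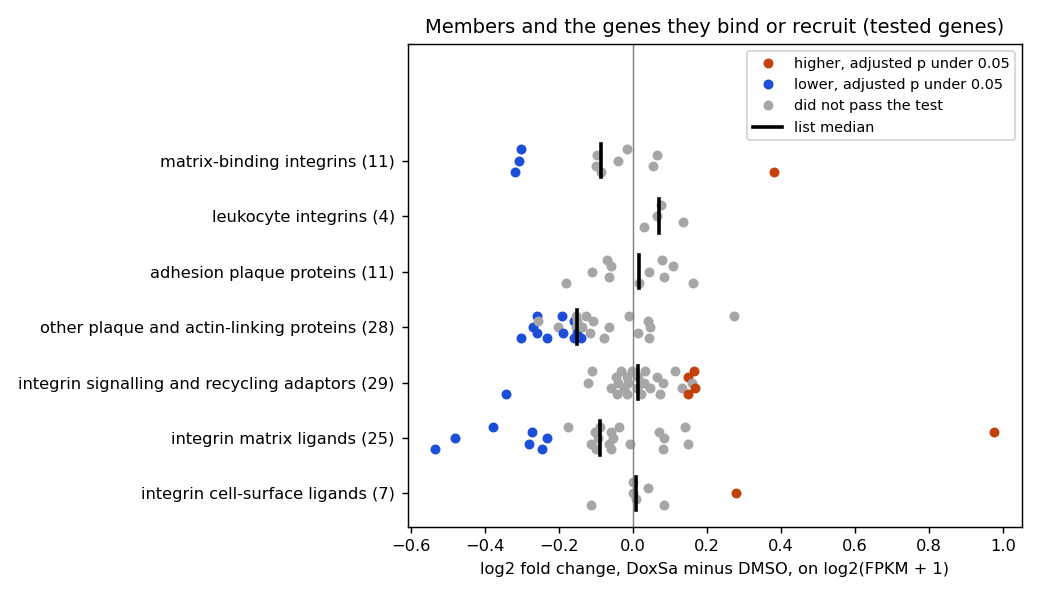
Log2 fold change (DoxSa minus DMSO) of each tested member and of each tested gene in 4 lists of binding partners, 1 point per gene, with a black bar at the list median and red (higher) and blue (lower) points for genes at an adjusted p under 0.05. Blue points are most frequent among the other plaque and actin-linking proteins (11 of 28) and the matrix ligands (7 of 25), against 2.02% of all tested genes. The member leukocyte integrins (4 tested) and member plaque proteins (11 tested) have no red or blue points. With 5.90% of all tested genes called, so few genes would give few calls or none.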

How the data were processed

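Bulk RNA sequencing of 8 libraries was analysed, with groups and replicate numbers from the titles. TRIzol extraction and VAHTS Universal V6 libraries are named per the labels' protocols. HISAT2, HTSeq and build GRCm39 were used per the submitters' processing notes; their versions, the annotation and any use of strand were not given in the sources used here. FPKM were deposited by the authors for 22962 genes, with no scaling for composition. Whole reads were recovered from the FPKM steps for 12060 of 12060 tested genes (within 0.001). The 8 libraries held 18726 to 19108 genes above 0.

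Genes averaging 0.5 FPKM or more were tested with limma 3.58.1 (R 4.3.3) with an intensity trend on log2(FPKM + 1), which understates changes of low genes, with Benjamini-Hochberg adjustment. Alternatives were a pseudocount of 0.1, no filter, a minimum of 2 FPKM, median-of-ratios scaling, quantile normalization, limma-voom on recovered reads, a replicate block and leaving out each library. The scripts were checked on simulated data. Python 3.11.15, numpy 2.4.6, pandas 2.3.3 and matplotlib 3.10.9 were used.

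The members and lists were chosen with earlier results of these data known. All members are named. From each list of further genes, up to 4 called genes by adjusted p in the direction with more calls and up to 2 in the other are named. Itga2b and Itgb6 are mentioned besides, as partners of members, after their values were seen. Marker genes called in lists of 1 or 2 calls are named after their values were seen. Of the listed genes, 10 were not matched in the table and are not analysed here. The reference at hand is of another build, so no gene coordinates are given, and promoter windows are those of RefSeq on GRCm38.p6.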

Additional observations from a re-analysis of the deposited data

Results flagged for a closer look

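In 3 of 64 sets of 4 libraries (26 tested and 6 low members in each group), 1 library stood apart from the other 3 by Dixon's criterion, and chance gives about 1 in 20. Itgb2 was low in DoxSa library 1, at 56.4 FPKM against 58.5, 58.6 and 58.8 FPKM in the other DoxSa libraries. Tln2 was high in DoxSa library 3, at 5.32 FPKM against 4.68, 4.73 and 4.75 FPKM. Ptk2b was high in DMSO library 1, at 14.4 FPKM against 13.3, 13.2 and 13.2 FPKM.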

How the results depend on the processing

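Over 15 alternatives, 387 values of the 26 tested members were computed: 364 kept their direction and their side of the threshold, 15 lost a call, 4 gained one and 4 changed sign. The sign changes were in Itga7 (log2 fold change -0.0419 to 0.104 over the fits without 1 library, negative without DMSO replicate 3), Itga4 (-0.00430 to 0.0744, negative without DMSO replicate 2) and Ptk2b (-0.00358 to 0.0533, negative without DoxSa replicate 1, and -0.0171 after quantile normalization), and the cause was not tested.

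Over all genes, 158 were higher and 108 lower with no filter, where more genes were tested. Voom called 370 lower, and 381 with a minimum of 10 reads, an alternative added after the data were seen. Leaving out 1 library gave 233 to 490 higher and 152 to 235 lower, with fewer samples. Among members, 0 were higher at a minimum of 2 FPKM, where Itgb3 was not tested. With voom at 10 reads 3 were higher (Itga2, Itgb3 and Itgb7), of which Itgb7 met that minimum only through its DoxSa libraries. With no filter 1 member was lower, and with either voom fit 5. Leaving out 1 library gave 0 to 1 higher and 1 to 3 lower members, with 0 higher without DoxSa replicate 2 and 1 lower without DoxSa replicate 2, DMSO replicate 2 or DMSO replicate 3.

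Deviations of same-numbered libraries correlated at -0.058, 0.052, -0.099 and 0.065, within the -0.205 to 0.154 of differently numbered libraries. No shared deviation by number showed in these values, which cannot tell whether same-numbered libraries were prepared together. With a replicate block, 415 genes were higher and 209 lower, and 1 member was higher and 2 lower (Itga8 had an adjusted p of 0.0512). Among the adaptors 1 gene was higher with the block, and Cd47 (0.0627), Tgm2 (0.0589) and Rap1b (0.110) lost their calls.

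The minimum of 0.5 FPKM left Itga2, Itga3, Itgax, Itgb7, Itgb8 and Parvg out of the main test, and the 4 libraries per group limit the precision of every fold change.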

Other observations

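The members differed in how closely libraries of a group lay together. The coefficient of variation over the 4 DoxSa libraries was between 0.930% (Parva) and 16.6% (Itgb3) for the 26 tested members, with a median of 3.77%. Over the 4 DMSO libraries it was between 1.16% (Itga9) and 20.3% (Itgal), with a median of 4.55%. For Itga7 it was 2.62% with DoxSa and 14.3% with DMSO.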
